A study of Drosophila melanogaster with 12 samples.

Results

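RNA that came down with the GFP-binder, a single-chain antibody against green fluorescent protein (GFP), was compared between embryos carrying a GFP-slam transgene and wild-type embryos. The comparison rests on 5 of the 12 libraries of the series, namely 2 GFP-slam libraries (replicates 1 and 3) and 3 wild-type libraries (replicates 1 to 3, labelled OrR). The other 7 libraries were precipitates of wild-type lysate with antibody against Slam (3) or against the formin Dia (4), and they serve here as a second readout that shares no library with the first. All embryos were Drosophila melanogaster embryos aged 1.5 to 3 h. GFP-slam is a genomic copy of the slam locus with GFP at the start codon, put on the third chromosome in a pattB vector. Whether the endogenous slam gene was still present in these embryos is not stated in the sources used here. Both strains were treated with the same binder and the same beads, so that wild type measures RNA that adheres without any GFP. RNA of the whole lysate was not among the libraries, and RNA bound to GFP-slam and RNA more abundant in the GFP-slam strain cannot be told apart from a ratio of this experiment alone.

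The gene slam is an early zygotic gene whose protein marks the furrow canal, the tip of the membrane that grows in between the nuclei when the syncytial embryo forms its first cells. Its protein is needed for that membrane to grow. An RNA that is bound by a protein, or carried in the same complex, is recovered with it when the protein is precipitated, whereas a gene that differs in expression between 2 fly stocks can differ in any precipitate of their lysates.

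The libraries held 39400688 and 47249817 counts for GFP-slam and 20170936, 29453698 and 29431595 counts for wild type. Levels are given as CPM, the counts per 1000000 counts of the TMM-scaled library, and a log2 ratio is GFP-slam over wild type with its standard error (SE) from edgeR's quasi-likelihood fit. Of 17559 genes in the table, 8767 reached a mean normalized count of 10 and were tested. Between libraries of 1 group the chi-square statistic was 186 to 299 per degree of freedom, where counting error alone gives about 1, so over the table the libraries differed by more than counting error. Genes of a few counts were limited by depth as well. Markers of the blastoderm embryo were present, for instance halo at 142 to 188 CPM and Kr at 101 to 178 CPM. Sry-alpha is the exception with at most 0.0691 CPM in any of the 5 libraries, against a mean of 344 CPM with the Dia antibody. It is 1 of 11 genes that the antibody table counts at 100 CPM or more and the wild-type binder libraries at under 1 CPM. Wild-type replicate 1 stood apart in small nucleolar RNAs, as described below.

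The slam RNA was the most abundant RNA in both GFP-slam libraries. The GFP-slam libraries held 11737 and 10649 CPM of it, and the wild-type libraries 697, 641 and 724 CPM. The 2 groups lay far apart, with every GFP-slam value above every wild-type value. The log2 ratio was 4.03 (SE 0.253, edgeR's adjusted p = 8.07e-05), or 16.3 times the wild-type mean. slam took 1.07% and 1.17% of all counts with GFP-slam and 0.0630% to 0.0728% in wild type. An exact permutation test over the 5 libraries gave p = 0.1 (one-sided), the smallest value that 2 against 3 libraries allow. Among the 2381 genes with at least 100 CPM in wild type, slam had the highest ratio, and it also ranked 1 among the 6081 genes with at least 10 CPM. Over all tested genes it ranked 23, and the genes above it were scarce in wild type. The GFP-slam embryos carried slam on a transgene, and how much of the ratio stems from a higher level in the lysate was not tested.

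Of the 6 annotated genes closest to slam on chromosome arm 2L, CG42368 and CG9505 had enough counts to be tested, and neither passed. CR44777, CR44778, CG9507 and CG42370 had too few. CG42368, the adjacent gene on one side, was at 2.95 and 3.53 CPM with GFP-slam and at 0.440, 0.725 and 0.709 CPM in wild type (log2 2.36, SE 0.581, adjusted p = 0.168). Its groups did not overlap. CG9505, on the other side, had a log2 ratio of 0.66, and Cpr, CG9498, CG13982 and Tig lay between -0.06 and 0.48.

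Across all genes tested, 46 passed as higher with GFP-slam (0.525%) and 20 as lower (0.228%), together 0.753%, at an adjusted p of 0.05 by edgeR with Benjamini-Hochberg adjustment. Groups did not overlap for 17.4% of genes. A fitted ratio past 4-fold was seen for 102 genes on the higher side (1.16%), of which 37 passed, and for 153 on the lower side (1.75%), of which 16 passed. The 65 genes past 4-fold higher that did not pass had a median normalized count of 23.9, against 281 for those that passed. The median log2 ratio of all genes was 0.02. Of the 46 higher genes, 13 kept an adjusted p below 0.05 whichever single library was left out, and so did 6 of the 20 lower genes. The 13 were slam, flfl, cindr, Sp7, Arc2, Cyp4p2, GstD1, y, CG4562, CG5455, CG12200, CG12560 and CG18547. Without wild-type replicate 1, 2 or 3, which leaves 2 against 2, the calls lost were 44, 44 and 41 of the 65 other than slam.

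The higher genes were mostly genes with little RNA in the wild-type precipitate. With a wild-type mean under 1 CPM, 14 of 1229 tested genes passed as higher, and between 1 and 10 CPM 17 of 1457. Between 10 and 100 CPM, 10 of 3700 passed, and at 100 CPM or more 5 of 2381. The median log2 ratio of the passing genes was 5.76 in the lowest class, 2.49 and 1.81 in the next ones and 1.83 in the highest. A gene scarce in wild type needs a large ratio to pass, so the order of these medians is largely set by the test. Since the wild-type libraries enter both the class and the ratio, the level in the Dia precipitates was used as a control level of its own. By that level 8 of 957 genes passed under 1 CPM, 18 of 1519 between 1 and 10 CPM, 11 of 3582 between 10 and 100 CPM and 7 of 2384 above. The medians of the passing genes were then 5.76, 3.70, 2.16 and 1.83, with the same limit. Of the lower genes 4 had a wild-type mean between 1 and 10 CPM, 14 between 10 and 100 CPM and 2 above. The minimum count takes part in this pattern, since a gene scarce in wild type could reach it through the GFP-slam libraries, which favours higher over lower calls there, and nothing is read from the absence of lower calls under 1 CPM.

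**Figure D1:**
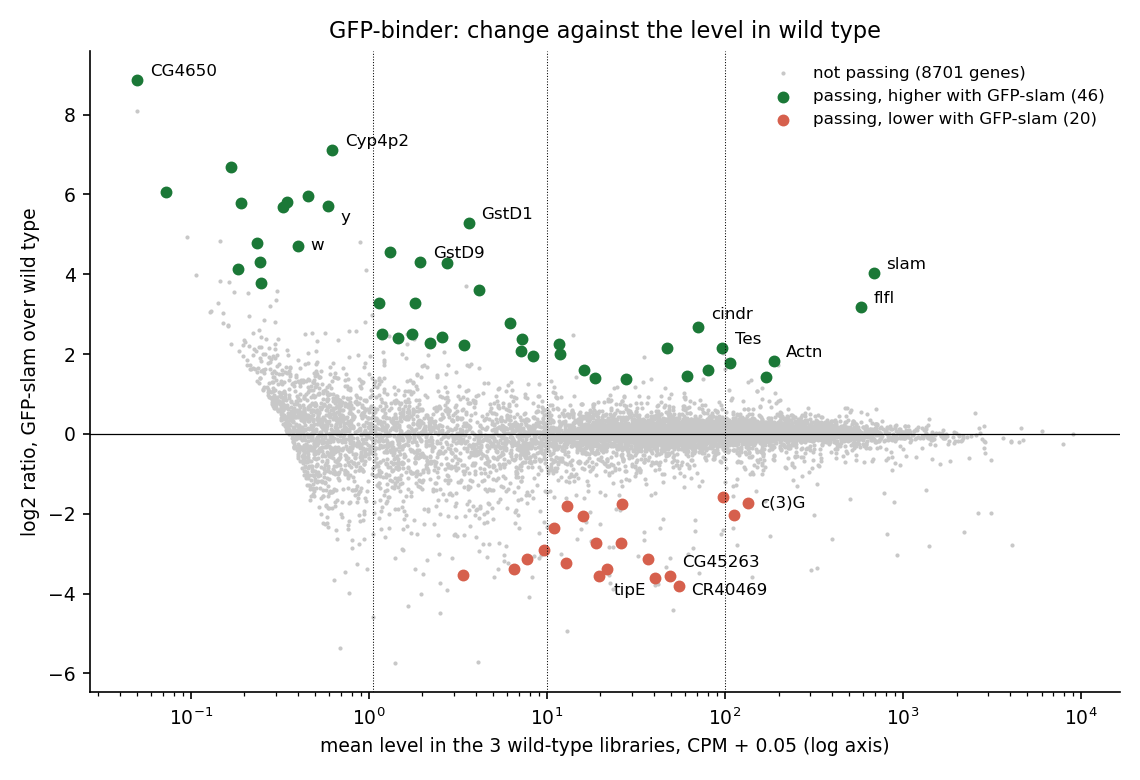
Log2 ratio of GFP-slam over wild type against the mean CPM of the 3 wild-type libraries (log axis, 0.05 added) for 8767 genes, with genes passing edgeR's test in colour and dotted lines at the bounds of the level classes. The genes slam and flfl stand alone among abundant RNAs with ratios above 3, while most other high ratios lie left of 10 CPM.

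Among the 15 higher genes with at least 10 CPM in wild type, flfl followed slam. flfl encodes falafel, a regulatory subunit of protein phosphatase 4. It was at 6396 and 4078 CPM with GFP-slam and at 529, 682 and 531 CPM in wild type (log2 3.17, SE 0.300, adjusted p = 0.000957). The lowest GFP-slam value thus stood well above the highest wild-type value. The gene omd, which overlaps flfl, had a log2 ratio of 0.01 at a mean of 77.0 CPM.

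Further genes of this level that passed were cindr, Tes, Actn and cher, whose products are known to bind or organize actin. They did not follow flfl as a run, since Sp7 (log2 2.26) and pst (log2 2.16), described below, ranked between cindr and Tes. They are not a list that was counted, and were put together after their values were seen. cindr encodes an adaptor of the CIN85 and CD2AP family that joins membrane proteins to actin. Its level was 465 and 435 CPM with GFP-slam against 68.3, 86.2 and 57.7 CPM (log2 2.67, SE 0.279, adjusted p = 0.00196). Tes, the testin ortholog with LIM domains, was at 354 and 502 CPM against 115, 86.8 and 88.6 CPM (log2 2.15, SE 0.285, adjusted p = 0.00733). For both genes the groups were clearly separate. Actn, which encodes alpha-actinin, a crosslinker of actin filaments, was at 481 and 861 CPM against 186, 155 and 224 CPM (log2 1.83, SE 0.327, adjusted p = 0.0397). cher, which encodes the filamin cheerio, was at 233 and 255 CPM against 85.7, 63.4 and 91.0 CPM (log2 1.61, SE 0.257, adjusted p = 0.0213). The 2 GFP-slam libraries differed more for Actn than for cher. Tes, Actn and cher did not pass when any 1 wild-type library was left out, with adjusted p of up to 0.117, 0.307 and 0.184, and Actn and cher did not pass with the replicate number as a block (adjusted p = 0.0672 and 0.0917). Cortactin, which encodes another actin-binding protein, had a log2 ratio of 1.63 and did not pass (adjusted p = 0.138). Of 30 tested genes in the whole list of cellularization genes, slam and cher passed (6.67%, beside 0.525% of all genes as higher). Nothing is read from this share, since slam is the gene of the precipitated protein and the call for cher was not stable. The median log2 ratio of this list, 0.02, was that of all genes.

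The other abundant genes that passed as higher came from several families. pst (pastrel), known for resistance to RNA viruses, was at 254 and 170 CPM against 44.4, 59.2 and 38.7 CPM (log2 2.16, adjusted p = 0.00733). Sp7, a serine protease of the melanization cascade, was at 51.3 and 60.9 CPM against 13.3, 12 and 9.80 CPM (log2 2.26, adjusted p = 0.00223). In each the GFP-slam values were above all wild-type values. The call for pst was lost when any 1 wild-type library was left out (adjusted p up to 0.109), whereas that for Sp7 was kept. Idh, which encodes isocitrate dehydrogenase, had a log2 ratio of 1.43 (adjusted p = 0.0429, and 0.211 with the replicate number as a block), CG4586 of 1.77, CG7034 (Secretory 15, an exocyst subunit) of 1.46 and CG12214 (mulet) of 1.37. CG11241, CG5191 and CG12321 lay between 1.4 and 2.01. CG5191 overlaps CG10877, which passed too (log2 2.08), and the kit does not mark strand, so the reads of this pair cannot be assigned with certainty.

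**Figure D2:**
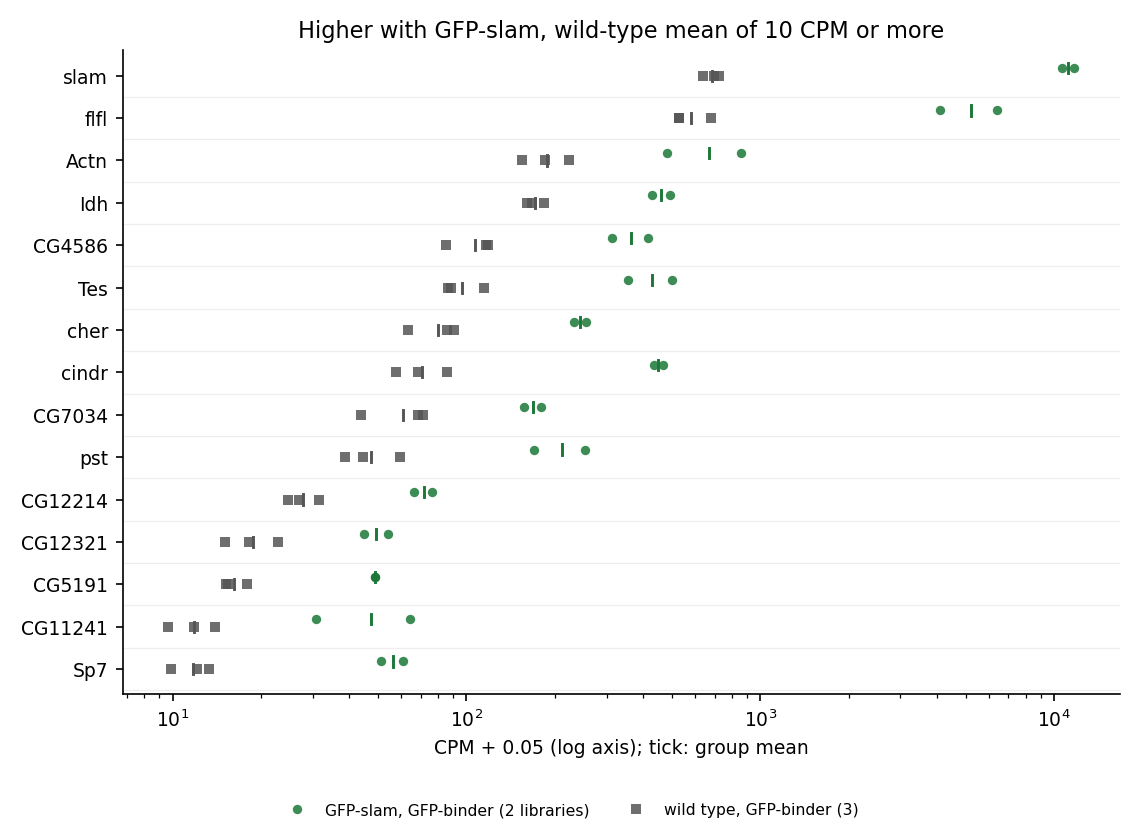
CPM in each library (log axis, 0.05 added) of the 15 genes that passed as higher and had a wild-type mean of at least 10 CPM, with the group mean as a tick. Every GFP-slam library lies above every wild-type library in all 15, from slam at the top to Sp7 at the bottom. The 15 genes were chosen by a test on these same libraries, and groups did not overlap for 17.4% of all genes tested.

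The remaining 31 higher genes had less than 10 CPM in wild type. CG4650 had 0 counts in all 3 wild-type libraries and 1.0 and 2.49 CPM with GFP-slam. That is at least 46.0-fold higher, against a floor of 3 counts over the wild-type group. The 95% exact counting interval of the ratio, which also covers counting error with GFP-slam, starts at 39.9. CG10559 had 2 counts over the wild-type libraries and 1.73 and 2.07 CPM with GFP-slam, a ratio of 76.1 (95% exact counting interval 20.8 to 634). Neither call held when a wild-type library was left out (adjusted p up to 0.265 and 0.308).

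The highest ratio of a gene with more than a few counts in wild type belonged to a cytochrome P450, an oxidase of foreign and endogenous compounds. Cyp4p2 was at 81.5 and 80.7 CPM with GFP-slam and at 0.391, 0.725 and 0.608 CPM in wild type (log2 7.10, SE 0.322, adjusted p = 1.09e-05). Its direct neighbour Cyp4p1 was at 2.03 and 2.64 CPM against 0.196, 0.138 and 0.0676 CPM (log2 4.12, SE 0.757, adjusted p = 0.0465). Both genes were under 1 CPM in wild type. The call for Cyp4p1 was lost when any 1 wild-type library was left out (adjusted p up to 0.319). Of 39 tested cytochrome P450 genes, Cyp4p2 and Cyp4p1 passed (5.13%, beside 0.525% of all genes). The median of the family was 0.44. Both overlap hig, whose own log2 ratio was 0.52.

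Genes for glutathione S-transferases, which conjugate glutathione to toxic compounds, passed in 1 cluster on arm 3R. GstD1 was at 148 and 134 CPM with GFP-slam and at 1.66, 4.11 and 4.97 CPM in wild type (log2 5.28, SE 0.413, adjusted p = 0.000461). GstD9 was at 49.2 and 26.7 CPM against 1.47, 3.25 and 0.980 CPM (log2 4.31, SE 0.510, adjusted p = 0.00733). GstD3 was at 8.39 and 6.49 CPM against 1.47, 1.55 and 1.18 CPM (log2 2.41, SE 0.444, adjusted p = 0.0465). These 3 sit within a few genes of each other, and none of their groups overlapped. Only GstD1 passed without wild-type replicate 1, where the adjusted p was 0.0690 for GstD9 and 0.178 for GstD3. Of 33 tested members of the family these 3 passed, beside 0.525% of all genes, and the family's median was 0.24. Other members of the cluster did not pass, with log2 ratios of 2.78 for GstD2, 1.80 for GstD5 and -0.23 for GstD7. GstE1, an abundant member on arm 2R, was at 129 and 108 CPM against 101, 168 and 165 CPM. None of 16 tested regulators and enzymes of the oxidative stress response passed, and their log2 ratios ran from -0.57 to 0.49.

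The pigmentation genes y and w, which flies are commonly marked with, were also higher. y (yellow) was at 24.6 and 32.4 CPM with GFP-slam and at 0.587, 0.587 and 0.439 CPM in wild type (log2 5.72, SE 0.338, adjusted p = 6.73e-05). w (white), a transporter of eye pigment precursors, was at 9.06 and 9.94 CPM against 0.0979, 0.414 and 0.541 CPM (log2 4.71, SE 0.626, adjusted p = 0.00733). Both were under 1 CPM in every wild-type library and above 9 CPM with GFP-slam. The call for w was lost in 2 of the fits that left out a library (adjusted p up to 0.148). Vectors of the pattB family carry a copy of white as a visible marker, and whether reads of w came from the vector was not tested. Of 12 tested marker genes of fly strains, y and w passed (16.7%, beside 0.525% of all genes). The genes that overlap them, kirre and CG32816, had log2 ratios of -1.16 and -1.0.

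The other scarce genes came from many families. CG18547 was at 14.4 and 11.7 CPM with GFP-slam and at 0.0489, 0.104 and 0.203 CPM in wild type (log2 6.68, SE 0.567, adjusted p = 0.000490). CG12560 was at 32.2 and 19.7 CPM against 0.294, 0.760 and 0.169 CPM (log2 5.96, SE 0.558, adjusted p = 0.000972). Arc2, a relative of the Gag proteins of retroelements, was at 16.2 and 18 CPM against 2.25, 1.73 and 1.32 CPM (log2 3.28, SE 0.356, adjusted p = 0.00223). In these genes too, GFP-slam and wild type were far apart. Ir76a, a chemosensory receptor, had a log2 ratio of 5.80, as did Dscam4, a cell adhesion molecule of the immunoglobulin superfamily. The phosphodiesterase genes Pde6 and Pde9, whose products cleave cyclic nucleotides, had 5.68 and 2.23, and phr6-4, a DNA photolyase, had 1.95. Calls for Ir76a, Dscam4, Pde6, Pde9 and phr6-4 were lost when a wild-type library was left out (adjusted p up to 0.157, 0.117, 0.0865, 0.117 and 0.113). Ir76a overlaps CG14102, which had a log2 ratio of 1.16 and did not pass (adjusted p = 0.138).

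**Figure D3:**
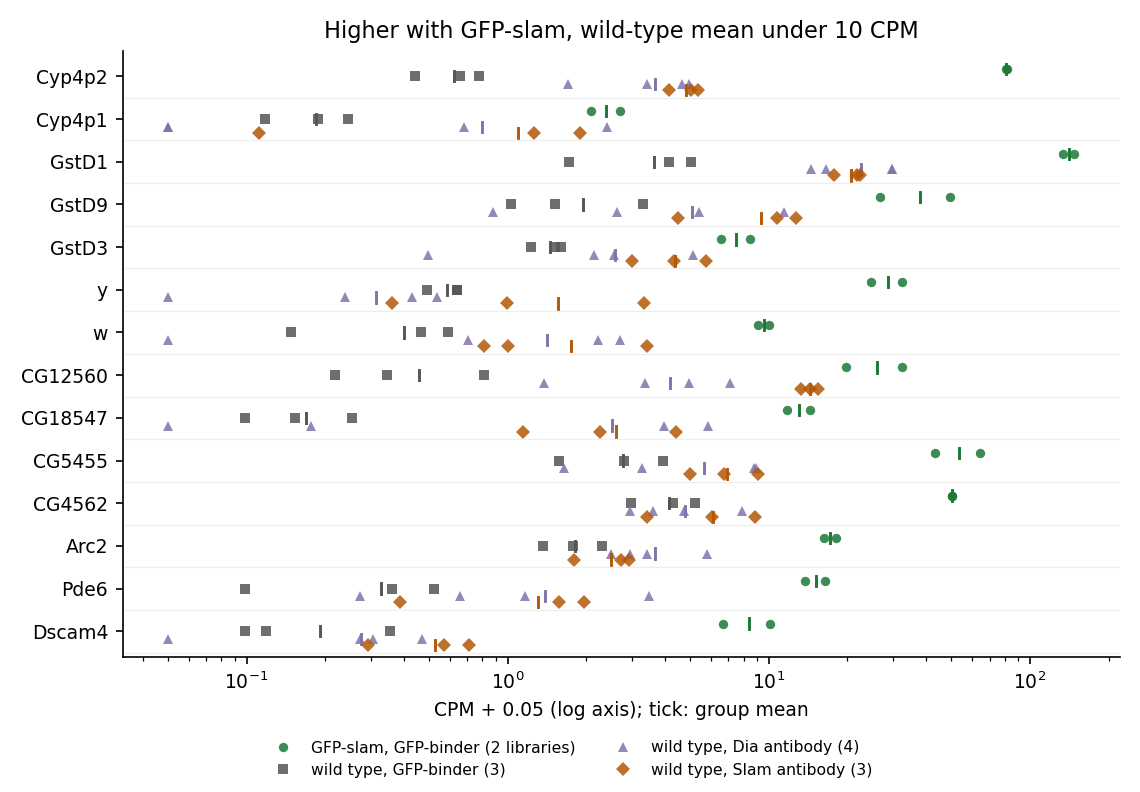
CPM in each library (log axis, 0.05 added) for 14 of the 31 higher genes with a wild-type mean under 10 CPM, with the group means as ticks and the 7 antibody libraries from wild-type lysate beside them. In genes such as Cyp4p2, GstD1 and y the 2 GFP-slam libraries lie right of all 10 libraries from wild-type embryos, while Cyp4p1 overlaps the antibody libraries.

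The 20 lower genes had log2 ratios from -3.82 to -1.59. CR40469, a long noncoding RNA gene on the X chromosome, was at 4.27 and 3.49 CPM with GFP-slam and at 77.5, 30.6 and 56.5 CPM in wild type (log2 -3.82, SE 0.429, adjusted p = 0.00242). tipE, which encodes a subunit of voltage-gated sodium channels, was at 4.54 and 2.10 CPM against 60.0, 22.4 and 39.0 CPM (log2 -3.61, SE 0.529, adjusted p = 0.0211). Its wild-type libraries varied, yet the lowest of them was above both GFP-slam libraries. CG45263 was at 3.48 and 4.85 CPM against 48.5, 54.0 and 44.2 CPM (log2 -3.55, SE 0.296, adjusted p = 0.000477). CG10407 was at 2.12 and 2.03 CPM against 20.2, 26.7 and 18.6 CPM (log2 -3.40, SE 0.321, adjusted p = 0.000957). In both genes the replicates of each group lay close together. mthl8, a receptor of the methuselah family, had a log2 ratio of -3.39 and Ent3, an equilibrative nucleoside transporter, of -2.90. c(3)G, which encodes a protein of the synaptonemal complex, was at 48.5 and 32 CPM against 163, 132 and 108 CPM (log2 -1.74, SE 0.303, adjusted p = 0.0357). CR42861 and CR45923 are further noncoding genes of this group, so that 3 of 158 tested long noncoding RNA genes passed as lower, against 0.228% of all genes. In the same class CR34335 passed as higher, at 54.2 and 30.0 CPM against 7.34, 3.94 and 7.30 CPM (log2 2.77, adjusted p = 0.00686). It overlaps DIP-alpha, and its call was lost without any of 3 libraries taken singly (adjusted p of up to 0.0855). Calls for tipE, mthl8, Ent3 and c(3)G were lost when a wild-type library was left out (adjusted p up to 0.0990, 0.179, 0.179 and 0.203).

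**Figure D4:**
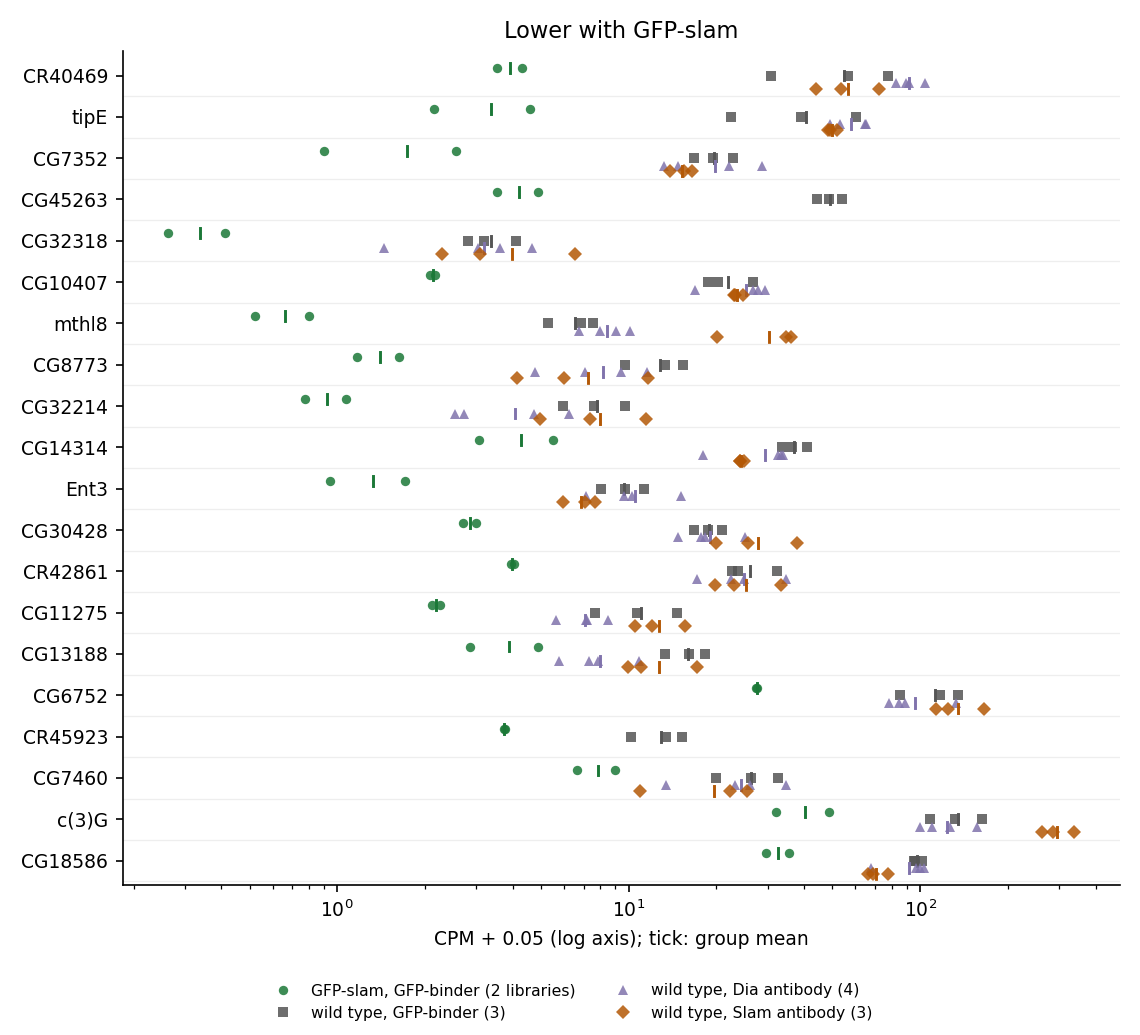
CPM in each library (log axis, 0.05 added) of the 20 genes that passed as lower with GFP-slam, with group means as ticks. The 2 GFP-slam libraries lie left of every wild-type library, those with Dia or Slam antibody included, in all 18 genes that both tables hold. The genes were chosen by a test on the GFP-binder libraries shown. Over all 8442 tested genes in both tables the share was 2.77%. Among the 696 genes already below the wild-type binder libraries, 33.6% also lay below the antibody libraries.

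The antibody libraries, all made from wild-type lysate with other beads, give more values for wild-type embryos, although the 2 tables were normalized separately. Their gene sets differed as well, with 17559 genes for the GFP-binder, 15682 for the antibodies and 15288 shared by name. Which annotation each was counted with is not given in the sources used here. Besides the 11 genes named with Sry-alpha, 10 genes were at 100 CPM or more in the wild-type binder libraries and under 1 CPM with Dia antibody, mt:lrRNA and mt:Cyt-b among them. Both GFP-slam libraries lay below all 10 wild-type libraries for 18 of the 18 lower genes present in both tables, and above all 10 for 35 of 44 higher genes. Over all 8442 tested genes in both tables these shares were 2.77% and 2.12%. Of the 696 genes whose GFP-slam values lay below the 3 wild-type binder libraries, 33.6% also lay below the 7 antibody libraries, and of 737 genes above the 3, 24.3% lay above the 7. The 9 higher genes that did not clear all 10 were slam, flfl, Tes, cher, GLaz, CG11155, CG4650, Cyp4p1 and mthl3. Of these, all but CG11155, Cyp4p1 and mthl3 cleared the wild-type binder and Dia libraries and were overlapped by Slam antibody libraries.

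The ratio of Slam over Dia antibody compares precipitates of a single strain, so a difference between fly stocks has no part in it. Of the 46 higher genes, 30 were measured there, and 4 passed as higher with the Slam antibody (6.84% of all genes measured passed), while 0 passed as lower (3.62% of all). These were slam (log2 6.29, adjusted p = 0.00421), flfl (2.46, adjusted p = 0.0237), Tes (2.53, adjusted p = 0.000641) and cindr (1.1, adjusted p = 0.0187). All 4 belong to the 13 measured genes with at least 10 CPM in the wild-type binder libraries. Of the 31 higher genes with less, only 17 were measured. None of them passed by edgeR, and 3 had an unadjusted p below 0.05. Beside the 6.84% of all genes measured, 0 of 17 is not far off, and nothing is read from it. The median log2 ratio with the antibodies was 0.62 in the first and 0.31 in the second set, with ranges of -0.27 to 6.29 and -1.11 to 2.86. GLaz, a lipocalin, and CG12560 came closest among the scarce genes, with log2 ratios of 2.86 (adjusted p = 0.0501) and 1.79 (adjusted p = 0.0516).

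The difference between the ratios of the experiments was tested in 1 fit over all 12 libraries. The called genes had been chosen by the GFP-binder ratio, which is 1 of the terms of this difference, so that its direction and the number of calls are largely set by that choice and are given as a description. It passed for 17 of the 30 higher genes, each with the larger ratio in the GFP-binder experiment (background 3.32% of 7197 genes in either direction and 0.653% in this one). The 17 held 11 of the 17 scarce genes and 6 of the 13 with at least 10 CPM. For Cyp4p2 the GFP-binder ratio was larger by 6.66 on the log2 scale (adjusted p = 7.03e-06) and for GstD1 by 5.40 (adjusted p = 3.23e-05). GstD1 was at 14.4 to 29.6 CPM with Dia antibody and at 17.7 to 22.3 CPM with Slam antibody, without separation. Idh, pst, Sp7 and cindr were among the abundant genes with a larger ratio for GFP-slam, by 1.50, 2.04, 2.35 and 1.52. For slam the difference was -2.28 (adjusted p = 0.185), for flfl 0.68 (adjusted p = 0.626), for Tes -0.38 (adjusted p = 0.702), for cher 0.38 (adjusted p = 0.786) and for Actn 1.22 (adjusted p = 0.198). These differences did not pass, which does not show that the ratios were alike.

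Of the 18 lower genes measured with the antibodies, 2 passed as higher with the Slam antibody, beside 6.84% of all genes measured. mthl8 had a log2 ratio of 1.84 with Slam antibody (adjusted p = 0.00320) and c(3)G of 1.26 (adjusted p = 0.00402). For 16 of the 18 the difference between the experiments passed, again after a choice by the GFP-binder ratio, and CG7460 and Ent3 were the exceptions. The median log2 ratio of the 18 with the antibodies was -0.03.

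**Figure D5:**
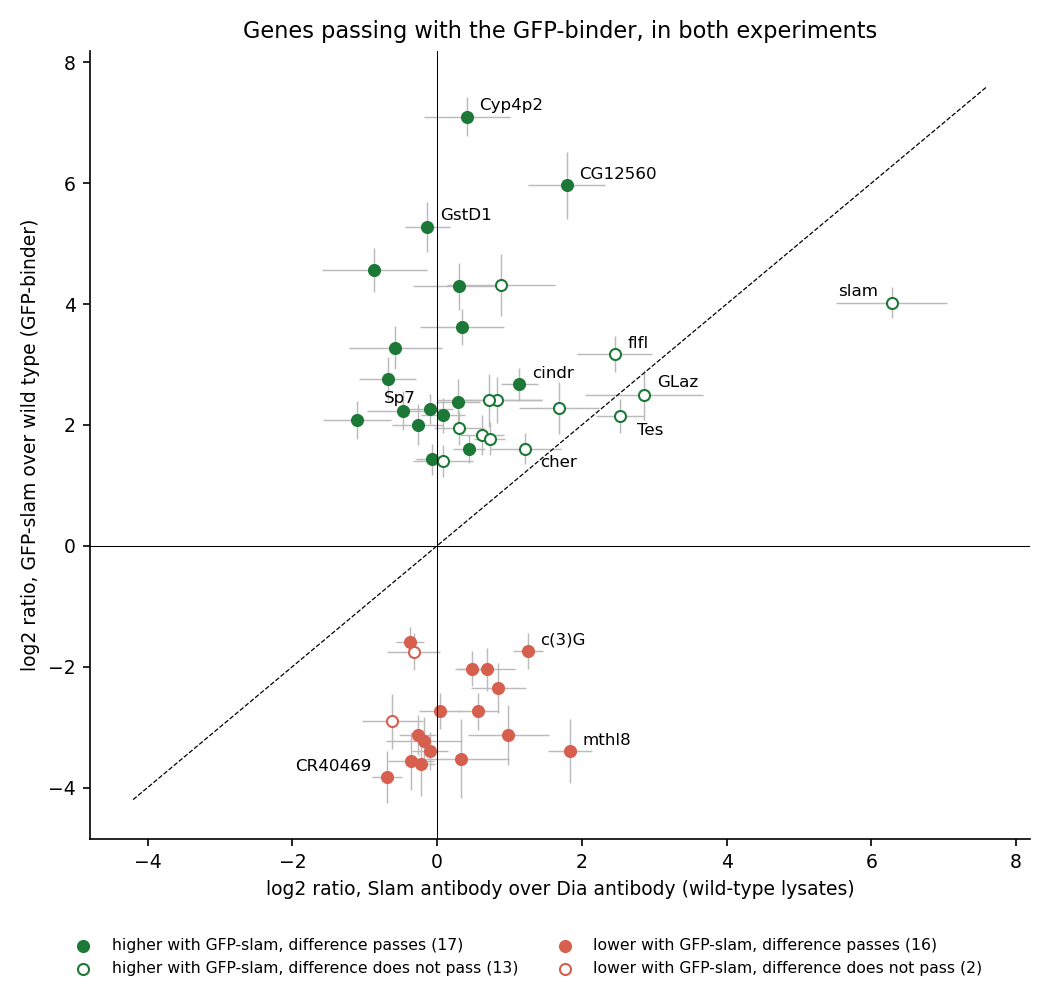
Log2 ratios of the GFP-binder experiment (y axis) and the antibody experiment (x axis) with SE for the 48 passing genes measured in both, with filled points where the difference between the experiments passed and a dashed line of equal ratios. The genes slam, flfl, Tes and GLaz lie at 2 or more on both axes, while Cyp4p2 and GstD1 lie high on the y axis near 0 on the x axis, and the lower genes spread from -0.70 to 1.84 on the x axis.

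Called genes were often near each other in the genome. Of 65 called genes with a known place, 15 (23.1%) had another called gene within 5 tested genes, against 6.69% of all tested genes. Besides the Cyp4p and GstD genes these were CG31370 with CG10559, mthl3 with Tes, CG7352 with CG45263, CG5191 with CG10877, and CG12321 with CG14314, the last pair in opposite directions. By arm, 19 of 2099 tested genes were higher on 3R, 8 of 1485 on X, 7 of 1767 on 2R, 5 of 1713 on 3L, 5 of 1509 on 2L and 1 of 79 on chromosome 4. Over all genes tested, 0.525% were higher and 0.228% lower. Lower genes were 7 of 1713 tested on 3L (0.409%), 7 of 2099 on 3R (0.333%), 4 of 1767 on 2R (0.226%) and 2 of 1485 on X (0.135%). An overlap with another annotated gene exists for 34 of the 66 called genes, and of the 25 overlapping genes that could be tested, 2 passed, namely the pair CG5191 and CG10877. CG32017, which overlaps the called gene CG11155 (log2 2.28), had a larger log2 ratio of 3.58 and did not pass (adjusted p = 0.0595). Reads of this pair cannot be assigned with certainty either.

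Small nucleolar RNA genes, whose products guide the modification of ribosomal RNA, made up 70 of the 153 genes past 4-fold lower, but none of the 120 tested passed by edgeR, and 1 had an unadjusted p below 0.05. Their summed level was 1376 and 1419 CPM with GFP-slam, and the wild-type sums were 15354, 1279 and 1843 CPM, so that wild-type replicate 1 alone was high. It held the highest value of the 5 libraries for 115 of the 120. Without it, 1 gene of this class was past 4-fold lower, and the median log2 ratio moved from -2.19 to -0.09. Transcripts of the mitochondrial genome varied from library to library, with sums of 4012 and 7069 CPM for GFP-slam against 7824, 4657 and 7636 CPM, and 0 of 21 passed.

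Genes with a CG name only, which have not been characterized under a name in the table, made up 19 of the higher and 13 of the lower genes, of 3764 tested (0.505% and 0.345%, beside 0.525% and 0.228% of all genes). Of 15 tested immunity genes, Sp7 passed, and of 23 chemosensory receptors and odorant-binding proteins, Ir76a. None of 23 maternal transcripts, 29 early zygotic transcripts and 9 pole cell transcripts passed, with median log2 ratios of 0.08, -0.05 and 0.10. Among 86 genes of cytoplasmic ribosomal proteins the median was -0.05, and 0 passed. None passed either of 72 genes of mitochondrial ribosomal proteins, 35 cuticle proteins, 12 UDP-glycosyltransferases, 6 histones or 4 hemocyte and fat body markers. Genes of later embryos differed between the libraries of each strain. Mhc, the muscle myosin heavy chain, was at 14.5 and 204 CPM with GFP-slam and at 33.2, 45.9 and 150 CPM in wild type. The sum of this list was 54.7 and 440 CPM against 106, 132 and 354 CPM, high in replicate 3 of both strains. In such bulk material, fewer cells of a type and less RNA per cell cannot be told apart. CG5261 was also high in GFP-slam replicate 3 alone, at 127 and 662 CPM against 96.2, 113 and 81.7 CPM (log2 2.02, adjusted p = 0.395). Markers of follicle cells and testis summed to at most 1.11 and 0.579 CPM in any library.

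A list of 16 genes named by the study for this precipitate had been chosen on these same libraries, so its count is no independent evidence. Of them 14 passed, and CG5261 and CG14688 did not. CG14688 was at 107 and 48.4 CPM with GFP-slam and at 7.39, 16.3 and 18.2 CPM in wild type (log2 2.48, SE 0.444, adjusted p = 0.0540). Its groups did not overlap, and its replicates with GFP-slam differed from each other more than those of most genes above.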

How the data were processed

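Lysates of staged embryos were incubated with biotinylated GFP-binder, and the binder was taken up on streptavidin beads. The TruSeq RNA kit, which does not mark strand, served for the libraries, and a HiSeq2000 for reading them. STAR 2.5.0, FastQC 0.11.4, DESeq2 and bcl2fastq 2.17.1.14 appear in the processing notes of the submitters, with no role stated. Which tool counted the reads, on which build and with which annotation, is not given in the sources used here. Per gene and library, the deposited tables hold raw read counts from the authors, with 0 library columns left unused. The authors' own tables of ratios and adjusted p-values were not used for any value.

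Counts were fitted with edgeR 4.0.16 in R 4.3.3 (robust glmQLFit and glmQLFTest, TMM, Benjamini-Hochberg over all genes kept, threshold 0.05) with a minimum mean normalized count of 10 (GFP-binder) or 50 (antibodies). The SE is the size of a log2 ratio over the root of its F statistic. Intervals and floors cover counting error only. Replicates are biological per the methods, and p-values measure the spread between these libraries. Gene names and positions come from RefSeq's annotation of Release 6, matched for 98.8% of genes, and are used for names and neighbours only. Python 3.11.15, scipy 1.17.1, pandas 2.3.3, numpy 2.4.6 and matplotlib 3.10.9 were used.

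Members, the 13 gene lists and the 12 classes by symbol were chosen with earlier results of these data known. Genes are named when they are slam, its neighbours, flfl, Tes or cindr, when the study lists them for this precipitate, when their passing ratio is 1 of the 10 highest or 10 lowest, or when they are among up to 4 passing members of a list. Other genes were named after their values were seen. The alternatives were RLE size factors, library totals, other minimums, filterByExpr, replicate numbers as a block, DESeq2 1.42.0, a fit of all 12 libraries, ratios of mean CPM and each library left out. The last, for small nucleolar RNAs, was chosen after seeing the data.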

Additional observations from a re-analysis of the deposited data

Results flagged for a closer look

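In 2 of the genes named above, 1 of the 4 Dia antibody libraries lay far from the others by Dixon's criterion, which chance meets in about 1 in 20 groups. For CG14314, lower with GFP-slam, the lowest Dia library was at 17.9 CPM and the next at 32.5 CPM. It still lay above both GFP-slam libraries. For mthl3, higher with GFP-slam, the highest Dia library was at 6.0 CPM and the next at 0.509 CPM, and this library alone kept mthl3 from clearing the Dia libraries.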

How the results depend on the processing

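The log2 ratio of slam passed under every alternative run and lay between 3.94 and 4.06 with each library left out in turn. The counts of passing genes moved more. From 46 higher and 20 lower genes, the counts became 121 and 165 with no minimum count and 111 and 89 with DESeq2. They ranged from 15 to 98 and from 7 to 81 with 1 library left out, lowest without a wild-type library. Where a GFP-slam library was left out, the lone one was taken to vary like wild type. Counts past 4-fold, 102 and 153, became 52 higher at a minimum of 50, 1162 and 961 with no minimum and 32 and 64 as ratios of mean CPM with 1 added. They ranged from 69 to 197 and from 104 to 434 with 1 library left out. The count of higher genes under 10 CPM in wild type, 31, became 77 with no minimum, 69 with DESeq2 and 18 in the fit of all 12 libraries, and ranged from 11 to 64 with 1 library left out. Glutathione S-transferases that passed numbered 1 to 3 with 1 library left out, and genes whose difference between the experiments passed numbered 10 to 15, against 17. The number of small nucleolar RNA genes past 4-fold lower ranged from 1 to 91. The cause of these shifts was not tested. Of the 65 passing genes other than slam, 17 kept their call under every setting in which they were tested, namely flfl, cindr, Sp7, Arc2, Cyp4p2, GstD1, y, CG12200, CG12560, CG4562, CG5455, CG10407, CG14314, CG30428, CG45263, CR40469 and CR42861. No ratio of slam or a passing gene changed sign under these settings, but the balance of directions did. Without GFP-slam replicate 3, 77 genes passed as higher and 81 as lower. Past 4-fold, higher genes outnumbered lower ones without GFP-slam replicate 1 (197 and 154), wild-type replicate 1 (117 and 104) or wild-type replicate 3 (189 and 178).

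Libraries with the same replicate number did not deviate together (r = -0.04 over genes between GFP-slam 1 minus 3 and wild type 1 minus 3), and the labels name no pairing. With the replicate number as a block, 75 genes passed as higher and 58 as lower, 59 of the higher under 10 CPM in wild type, while the calls for Actn, cher and Idh were lost. Scarce genes were also limited by depth, since 1 CPM is 20.4 to 51.8 reads in these libraries, and a wild-type level of 0 is known only to the floor of 3 counts over the group.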
